A study of Homo sapiens with 6 samples.

Results

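Wide peaks are peak regions of DHX9 binding to RNA that span 400 nt or more. They were chosen by width alone, the last base minus the first base plus 1, in the peak lists of 2 antibodies against DHX9, with the mitochondrial chromosome left out. There were 2030 of them among 28345 peaks, 1638 of 21564 in the DHX9-Rb list and 392 of 6781 in the DHX9-mAb list. The peaks came from HEK293 cells, an established human line of embryonic kidney origin, which had no genetic change or drug treatment in the labels. The cells were cross-linked with ultraviolet light at a labelled dose of 0.15 mJ per cm2, and DHX9 was pulled down with the antibody labelled DHX9-Rb or the one labelled DHX9-mAb in 2 biological replicates each. A control immunoglobulin, IgG-Rb, was used in 2 more samples, and none of its values were analysed here. Whether the peak caller used it for the lists is not stated. Both replicates of an antibody stand behind 1 list, so no replicate error can be given. Per the labels, control and DHX9 material were combined before reverse transcription. The lists give a position on the human assembly hg19 and a strand, with no height, score or p-value (0 lines with a score in either list), so the depth behind a peak is unknown.

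DHX9 (RNA helicase A) is an enzyme, mostly nuclear, that binds RNA duplexes and unwinds them. In human transcripts such duplexes often form where a pair of Alu repeats in opposite orientation fold back on each other, mostly in introns and untranslated regions. FLASH is a cross-linking assay: ultraviolet light joins DHX9 to RNA in contact with it, the RNA is trimmed, and the fragments left on the protein are sequenced. A peak caller then marks stretches where the fragments pile up.

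Width chose the members, so the widths are given as a description. Wide peaks made up 7.60% of the DHX9-Rb peaks (95% Wilson interval 7.25 to 7.96). With DHX9-mAb they made up 5.78% (5.25 to 6.36). They held 16.0% and 12.6% of the summed peak widths of the DHX9-Rb and DHX9-mAb lists. The DHX9-Rb list had 4.18 wide peaks for each one of the DHX9-mAb list, and 3.12 peaks under 400 nt for each one. The median wide peak spanned 462 nt with DHX9-Rb, with quartiles at 427 and 497 nt. With DHX9-mAb the median was 456 nt and the quartiles 424 and 487 nt. The median narrow peak, under 400 nt, spanned 193 nt with DHX9-Rb and 185 nt with DHX9-mAb. The widest peaks were 897 nt with DHX9-Rb and 771 nt with DHX9-mAb.

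Peak numbers changed little across the 400 nt threshold, and dropped steeply at 500 nt. Peaks of 400 to 409 nt numbered 151 with DHX9-Rb and 37 with DHX9-mAb, beside 184 and 32 peaks of 390 to 399 nt. Peaks of 490 to 499 nt numbered 120 and 27, while those of 500 to 509 nt numbered 51 and 15. Peaks of 400 to 499 nt thus formed 76.7% of the wide DHX9-Rb peaks and 83.4% of the wide DHX9-mAb peaks. Beyond 500 nt there were 381 DHX9-Rb and 65 DHX9-mAb peaks, of which 101 and 7 reached 600 nt. The drop lay at the same width in both lists. The labels give neither fragment lengths nor any upper limit set on them in alignment, and whether such a limit bears on the drop was not tested.

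**Figure D1:**
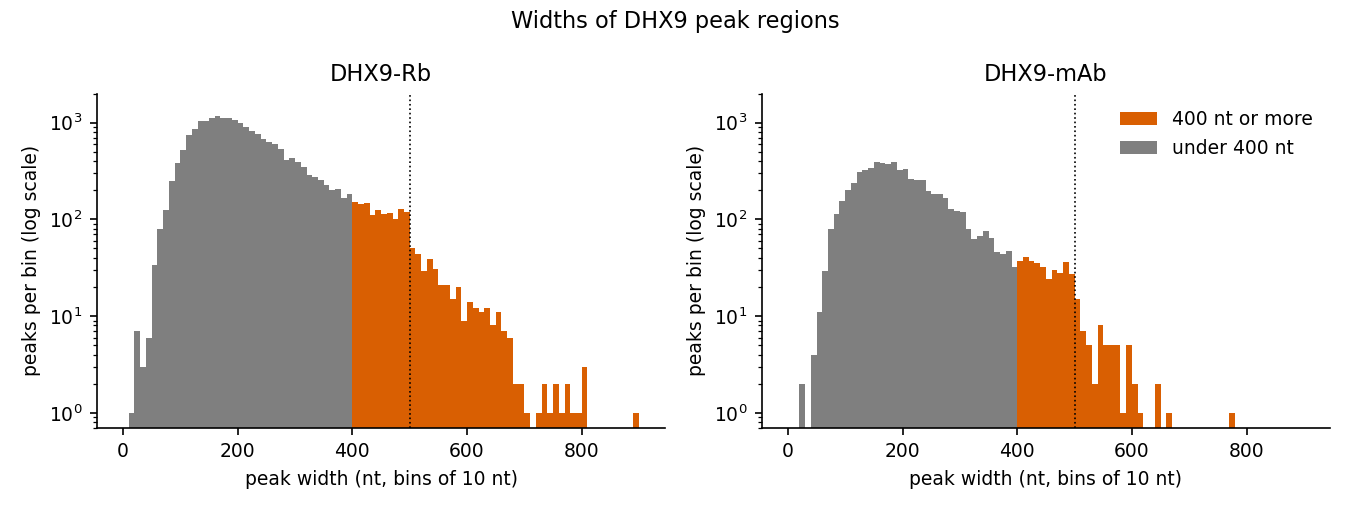
Number of peaks per 10 nt of width (log scale) in the DHX9-Rb list (left) and the DHX9-mAb list (right), with peaks of 400 nt or more in orange and narrower ones in grey. The dotted line marks 500 nt, where the number falls to 51 DHX9-Rb and 15 DHX9-mAb peaks per bin, against 120 and 27 in the bin before.

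The midpoint of a peak is 1 base whatever its width, so its cover by the other antibody was used to ask whether wide sites were recovered by both antibodies. Wide DHX9-Rb peaks had their midpoint inside a DHX9-mAb peak on the same strand in 641 of 1638 cases, or 39.1% (Wilson 36.8 to 41.5). Narrow DHX9-Rb peaks had it covered in 4354 of 19926 cases, or 21.9% (21.3 to 22.4). The difference of 17.3 percentage points passed Fisher's exact test (two-sided, odds ratio 2.30, adjusted p = 1.83e-50 over 8 tests). Wide DHX9-mAb peaks had their midpoint inside a DHX9-Rb peak in 310 of 392 cases, or 79.1% (74.8 to 82.8), and narrow DHX9-mAb peaks in 5102 of 6389, or 79.9% (78.9 to 80.8). That difference did not pass (odds ratio 0.954, Fisher's exact test, adjusted p = 0.698). The odds ratios of the lists differed from each other (ratio 2.41, Woolf's test, n = 28345 peaks, adjusted p = 8.99e-10 over 4 tests). Woolf's test takes the lists as independent, but overlapping pairs count in both, so its p-value is not exact. Peaks of 1 transcript share their RNA, and all p-values here therefore describe these lists rather than new experiments.

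The DHX9-mAb result depended on how a match was defined. By any overlap of at least 1 nt, 371 of 392 wide DHX9-mAb peaks (94.6%) met a DHX9-Rb peak, against 87.6% of the narrow ones, a difference of 7.09 points (Fisher's exact test, adjusted p = 8.5e-06). By the same measure 882 of 1638 wide DHX9-Rb peaks (53.8%) met a DHX9-mAb peak, against 26.3% of the narrow ones. A long region meets a neighbour more easily by any overlap, which the midpoint avoids. With the threshold at 300 nt in place of 400 nt, the midpoint share of DHX9-mAb was 4.76 points higher in the wider peaks (Fisher's exact test, adjusted p = 0.00052).

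Cover did not rise evenly with width. In the DHX9-Rb list 17.2% of the midpoints were covered at 100 to 149 nt, 27.0% at 250 to 299 nt and 34.2% at 300 to 349 nt. The share was 38.4% at 350 to 399 nt, 36.9% at 400 to 449 nt and 31.7% at 450 to 499 nt. Higher cover was thus not particular to peaks over the threshold. At 390 to 399 nt the DHX9-Rb share was 37.5%, and at 400 to 409 nt it was 36.4%. At 500 to 549 nt, 97 of 194 were covered. The share reached 64.4% (Wilson 54.6 to 73.0) in the 101 peaks of 600 nt or more. In the DHX9-mAb list the shares were 88.0% at 350 to 399 nt, 80.8% at 400 to 449 nt, 73.8% at 450 to 499 nt and 86.5% at 500 to 549 nt, the last of these over 37 peaks. In both lists the class of 450 to 499 nt, just below the drop in peak numbers, thus had a lower share than the classes on either side of it. In the DHX9-mAb list the Wilson intervals of these neighbouring classes overlap (66.1 to 80.3 at 450 to 499 nt and 74.4 to 85.8 at 400 to 449 nt). In the DHX9-Rb list the interval at 450 to 499 nt (28.1 to 35.6) overlaps that at 400 to 449 nt (33.4 to 40.6) and lies below that at 500 to 549 nt (43.0 to 57.0). These classes were picked after their values had been seen and were not tested.

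**Figure D2:**
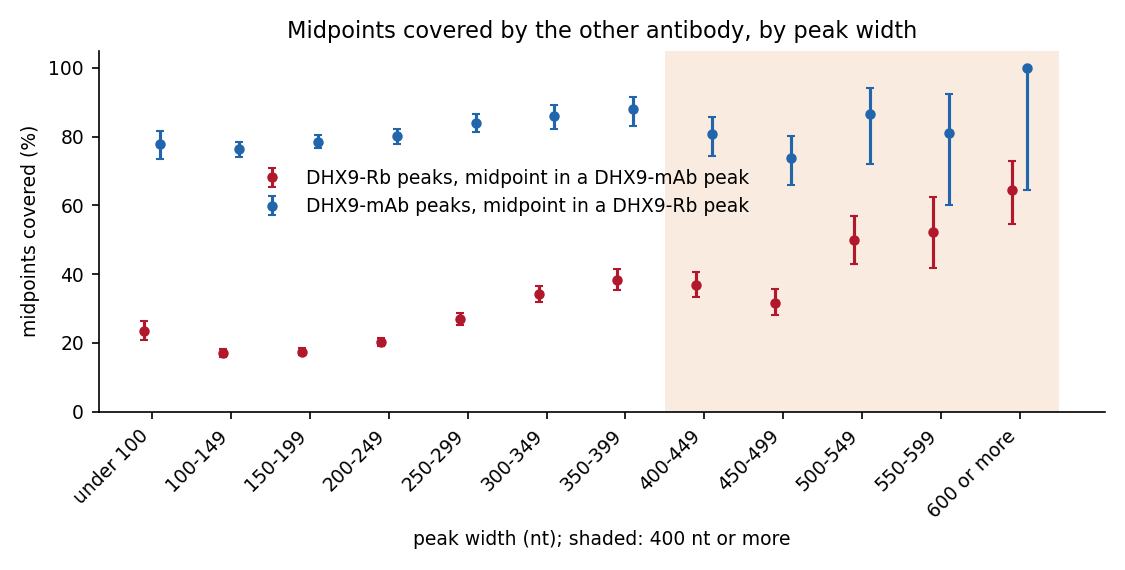
Share of peak midpoints that lie inside a peak of the other antibody on the same strand, by peak width, for DHX9-Rb peaks (red) and DHX9-mAb peaks (blue), with 95% Wilson intervals. Within the shaded range of 400 nt or more both lists are lowest at 450 to 499 nt, with 31.7% and 73.8%.

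Where a midpoint was covered, the covering peak was more often wide over wide than over narrow peaks. The width of the covering peak was measured with the other antibody and did not choose the members of the list in question, but the wide pairs counted for the lists are largely the same. Among wide DHX9-Rb peaks with a covered midpoint, the covering DHX9-mAb peak was itself wide in 152 of 641 cases, or 23.7% (Wilson 20.6 to 27.2), against 240 of 4354, or 5.51%, for narrow DHX9-Rb peaks. The difference passed Fisher's exact test (odds ratio 5.33, adjusted p = 2.6e-42). Among wide DHX9-mAb peaks the covering DHX9-Rb peak was wide in 152 of 310 cases, or 49.0% (43.5 to 54.6), against 772 of 5102, or 15.1%, for narrow DHX9-mAb peaks (odds ratio 5.40, Fisher's exact test, adjusted p = 6.22e-41). The median covering peak spanned 294 nt over wide and 194 nt over narrow DHX9-Rb peaks, and 396.5 nt over wide and 247 nt over narrow DHX9-mAb peaks.  With narrow peaks taken only from 100 kb windows that also hold a wide peak, the differences were 16.6 points in the DHX9-Rb list and 26.6 points in the DHX9-mAb list.

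In 149 pairs a wide DHX9-Rb peak and a wide DHX9-mAb peak each covered the midpoint of the other. Over the 152 wide DHX9-Rb peaks covered by a wide DHX9-mAb peak, the median distance between the peaks' edges was 64 nt at the 5′ edge and 59 nt at the 3′ edge. Where the covering DHX9-mAb peak could be of any width, it lay wholly inside the wide DHX9-Rb peak in 436 of 641 cases, and it reached past 1 end in 196. The covering DHX9-Rb peak lay wholly inside the wide DHX9-mAb peak in 108 of 310 cases and reached past 1 end in 173. DHX9-mAb covered 31.9% of the nucleotides of wide DHX9-Rb peaks. DHX9-Rb covered 71.2% of the nucleotides of wide DHX9-mAb peaks and 74.1% of those of narrow ones. The 5′ end base was covered less often than the midpoint, in 20.6% of wide DHX9-Rb and 52.3% of wide DHX9-mAb peaks. The 3′ end base was covered in 18.4% and 58.4%. Narrow peaks also had lower cover at their ends than at the midpoint. Their 5′ end base was covered in 12.9% with DHX9-Rb and 58.2% with DHX9-mAb, and their 3′ end base in 11.9% and 60.8%.

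Wide peaks with no overlap in the other list numbered 756 with DHX9-Rb (46.2%) and 21 with DHX9-mAb (5.36%). Of narrow peaks, 73.7% with DHX9-Rb and 12.4% with DHX9-mAb had no overlap. Of the 756, 317 (41.9%) had a DHX9-mAb peak less than 1 kb away on the same strand, and the median gap was 1637.5 nt. Of the 14676 narrow DHX9-Rb peaks with no overlap, 35.5% had one that near, with a median gap of 2405.5 nt. Of the 21 wide DHX9-mAb peaks, 12 (57.1%) had a DHX9-Rb peak within 1 kb, against 505 of the 795 narrow ones (63.5%).

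Some wide peaks held the midpoints of several peaks of the other antibody. The midpoints of 2 or more DHX9-mAb peaks lay inside 105 wide DHX9-Rb peaks (6.41%), of which 4 held 3. The midpoints of 2 or more DHX9-Rb peaks lay inside 40 wide DHX9-mAb peaks (10.2%), of which 1 held 3. Narrow peaks rarely had room for this, with 43 DHX9-Rb (0.216%) and 40 DHX9-mAb peaks (0.626%). Counted by any overlap, 267 wide DHX9-Rb peaks (16.3%) and 146 wide DHX9-mAb peaks (37.2%) touched 2 or more peaks of the other list. Per kb of peak the picture was different. Wide DHX9-Rb peaks held 1.19 DHX9-mAb midpoints per kb and narrow ones 1.11. Wide DHX9-mAb peaks held 2.16 DHX9-Rb midpoints per kb and narrow ones 3.67. These numbers follow in part from the width that chose the members and were not tested.

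Of the 4 wide DHX9-Rb peaks with 3 DHX9-mAb midpoints, the 3 widest are given here. On chromosome 4 a plus-strand peak from 1886671 to 1887367 (697 nt) held the midpoints of 3 DHX9-mAb peaks. These spanned 179, 162 and 192 nt and covered 75.3% of the wide peak. On chromosome 16 a minus-strand peak from 264743 to 265392 (650 nt) held 3 midpoints, of peaks of 249, 281 and 150 nt. It was covered over 86.5%. On chromosome 19 a minus-strand peak from 54956907 to 54957556, also 650 nt wide, held 3 midpoints, of peaks of 244, 128 and 240 nt. All 3 wide peaks stood in crowded places, in runs of 44, 27 and 17 DHX9-Rb peaks. A run is a chain of peaks on 1 strand with gaps under 1 kb. The wide DHX9-mAb peak with most DHX9-Rb midpoints had no neighbour in its own list within 1 kb. It lay on chromosome 22 on the minus strand from 36913691 to 36914357 (667 nt). It held the midpoints of DHX9-Rb peaks of 470, 68 and 251 nt, which covered 93.1% of it. Of the 39 wide DHX9-mAb peaks with 2 midpoints, the 2 widest lay on the plus strand, on chromosome 19 from 36707368 to 36707963 (596 nt, with DHX9-Rb peaks of 266 and 308 nt) and on chromosome 21 from 33034285 to 33034858 (574 nt). The peak on chromosome 21 held 2 DHX9-Rb midpoints and touched 3 DHX9-Rb peaks, of 227, 318 and 207 nt.

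Wide peaks stood close to other peaks of their own list more often than narrow peaks did. In the DHX9-Rb list 1487 of 1638 wide peaks (90.8%, Wilson 89.3 to 92.1) had a neighbour on the strand less than 1 kb away from edge to edge, against 15254 of 19926 narrow peaks (76.6%). In the DHX9-mAb list 327 of 392 wide peaks (83.4%, 79.4 to 86.8) had one, against 3971 of 6389 narrow peaks (62.2%). Both differences, 14.2 and 21.3 points, passed Fisher's exact test (adjusted p = 7.04e-47 and 5.99e-19). Counted by a distance under 1 kb between midpoints, which adds part of both widths to the gap, they were 14.2 and 20.7 points. Set against narrow peaks of the same 100 kb windows alone, the difference was 2.94 points with DHX9-Rb (Fisher's exact test, adjusted p = 0.000964) and -0.847 points with DHX9-mAb (adjusted p = 0.654). Narrow peaks of those windows had a near neighbour in 87.8% of cases with DHX9-Rb and 84.3% with DHX9-mAb. By this choice each narrow peak shares its window with a wide peak, while a wide peak may be alone in its window. The comparison within windows is therefore not an even one. Peaks just under the threshold were much like those just over it. With DHX9-Rb, 10.9% of peaks of 350 to 399 nt had no neighbour within 1 kb. The share was 8.97% at 400 to 449 nt and 12.5% at 450 to 499 nt. With DHX9-mAb these shares were 13.3%, 13.2% and 22.1%. Among peaks under 100 nt they were 40% with DHX9-Rb and 52.8% with DHX9-mAb. These classes were not tested.

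The gaps beside wide peaks were short on both sides. The median gap at the 5′ edge was 234.5 nt for wide and 556 nt for narrow DHX9-Rb peaks, and at the 3′ edge 208 and 560 nt. For DHX9-mAb it was 328 nt for wide and 1500 nt for narrow peaks at the 5′ edge, and 321 and 1529 nt at the 3′ edge. A neighbour on both sides within 1 kb was found for 66.5% of wide and 43.0% of narrow DHX9-Rb peaks, and for 53.6% and 28.3% of wide and narrow DHX9-mAb peaks. To the nearest neighbour the median gap was 111 nt for wide and 249 nt for narrow DHX9-Rb peaks, but the median distance between midpoints was similar, 495 and 476 nt. For DHX9-mAb the nearest gap was 159 nt for wide and 477 nt for narrow peaks, and the midpoint distance 517 and 686 nt. Peaks of 1 list could overlap each other, and 73 wide DHX9-Rb peaks (4.46%) and 15 wide DHX9-mAb peaks (3.83%) overlapped a neighbour, against 1.54% and 0.955% of narrow peaks. Where the nearest neighbour lay within 1 kb, it was itself wide for 16.1% of wide and 8.35% of narrow DHX9-Rb peaks, and for 12.5% and 8.16% of wide and narrow DHX9-mAb peaks.

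The share of wide peaks was higher in runs of 5 or more peaks than among peaks that stood alone. Of DHX9-Rb peaks with no neighbour within 1 kb, 3.13% were wide, of those in runs of 5 to 9 peaks 8.86%, of those in runs of 10 to 19 peaks 12.9%, and of those in runs of 20 or more 12.6%. Of DHX9-mAb peaks with no neighbour 2.62% were wide, of those in runs of 5 to 9 peaks 8.82%, and of those in runs of 10 to 19 peaks 9.99%. Runs of 20 or more DHX9-mAb peaks held 21 peaks in all, 4 of them wide. Runs of 5 or more peaks held 69.8% of the wide DHX9-Rb peaks and 51.0% of the wide DHX9-mAb peaks. Wide peaks were still spread widely, with 761 of the 1047 DHX9-Rb runs and 240 of the 301 DHX9-mAb runs that had any holding 1. In 100 kb windows, 769 of 3429 windows with a DHX9-Rb peak and 258 of 1935 with a DHX9-mAb peak held a wide one.

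In both lists wide peaks that stood alone had a lower covered share than wide peaks of large runs. Of the 151 wide DHX9-Rb peaks with no neighbour within 1 kb, 15 had a covered midpoint, or 9.93% (Wilson 6.11 to 15.7), against 13.4% (12.4 to 14.4) of the narrow peaks that stood alone. In runs of 2 to 4 peaks the shares were 19.5% for wide and 18.9% for narrow peaks. In runs of 5 or more peaks they were 48.9% (46.0 to 51.8) for wide and 28.1% (27.2 to 29.0) for narrow peaks. In the DHX9-mAb list the shares were 58.5% (46.3 to 69.6) for the 65 wide and 72.8% (71.0 to 74.6) for the narrow peaks that stood alone. They were 75.6% and 83.1% for wide and narrow peaks in runs of 2 to 4 peaks, and 88.0% and 85.3% in runs of 5 or more. Of the wide peaks that stood alone, 133 of 151 with DHX9-Rb and 56 of 65 with DHX9-mAb were 400 to 499 nt wide. The split by run size was chosen after the data had been seen and was not tested. Read numbers per site are not in the lists.

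Within runs that held both kinds, 612 of 1465 wide DHX9-Rb peaks (41.8%) and 1847 of 6221 narrow ones (29.7%) had a covered midpoint. The share was higher among the wide peaks in 311 of these 888 runs, lower in 299 and equal in 278. In the DHX9-mAb list 83.1% of wide and 84.0% of narrow midpoints were covered in such runs, and the share was higher among the wide peaks in 81 of 235 runs, lower in 46 and equal in 108. Most runs with a wide peak held 1, so that its share in a run could be 0 or all, and these tallies were not tested.

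**Figure D3:**
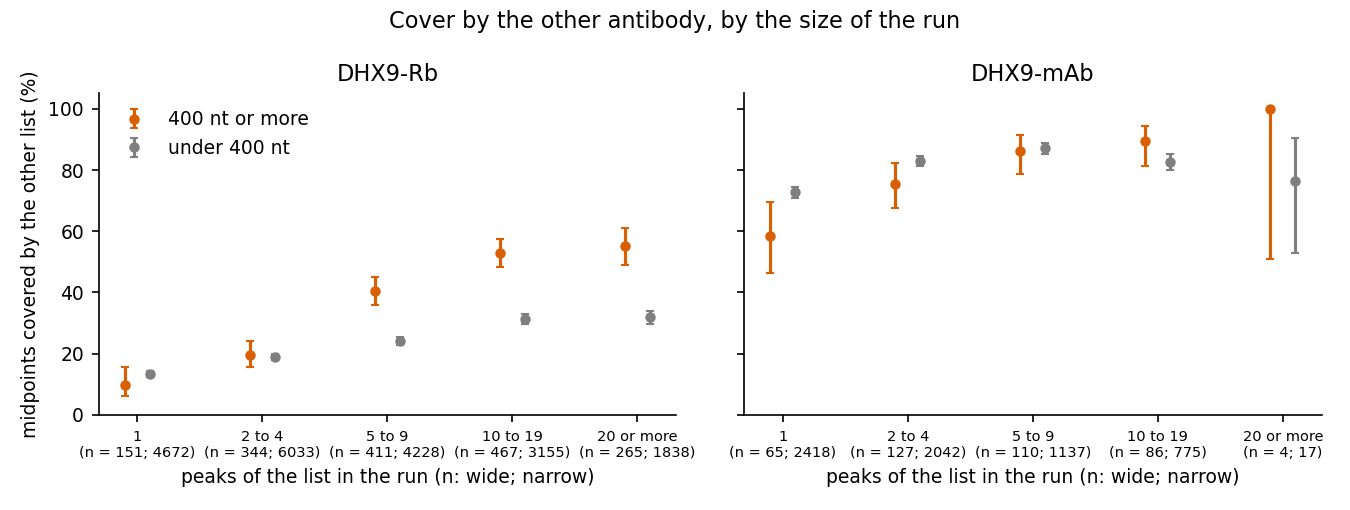
Share of midpoints covered by the other list for wide (orange) and narrow (grey) peaks, by the number of peaks of the same list in the run, with 95% Wilson intervals. With DHX9-Rb (left) the kinds lie together in small runs and part in runs of 5 or more peaks, and with DHX9-mAb (right) wide peaks lie lower in runs of 1 to 4 peaks.

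The share of wide peaks differed between chromosomes. Chromosomes 19, 22 and 16 held 587 of the 1638 wide DHX9-Rb peaks (35.8%) and 23.8% of the narrow ones. They are the 3 called higher in that list, so this pooled excess follows from the grouping. The same 3 held 148 of the 392 wide DHX9-mAb peaks (37.8%) and 26.5% of the narrow ones. On chromosome 19, 327 of 2905 DHX9-Rb peaks were wide (11.3%), against 7.03% elsewhere (Fisher's exact test, odds ratio 1.68, adjusted p = 6.84e-13). On chromosome 22 the number was 130 of 1159 (11.2%, odds ratio 1.58, exact test, adjusted p = 4.9e-05), and on chromosome 16 it was 130 of 1270 (10.2%, odds ratio 1.42, adjusted p = 0.00221). These 3 were the sequences called higher among 24 tested (12.5%). Another 4 (16.7%) were called lower, chromosomes 3, 6, 15 and 2. Chromosome 3 had 20 wide peaks among 680 (2.94%, odds ratio 0.361, exact test, adjusted p = 3.56e-06), chromosome 6 had 26 among 641 (4.06%), chromosome 15 had 21 among 509 (4.13%) and chromosome 2 had 27 among 578 (4.67%).

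In the smaller DHX9-mAb list 1 of 24 sequences was called lower (4.17%) and 0 were called higher (0%) by the same adjusted test. Without adjustment 5 were lower and 4 higher at 0.05. The sequence called was chromosome 6, with 2 wide peaks among 204 (0.98%, odds ratio 0.157, Fisher's exact test, adjusted p = 0.0166). Chromosome 22 had 37 of 407 (9.09%, adjusted p = 0.0694), chromosome 19 had 76 of 1011 (7.52%, adjusted p = 0.0934) and chromosome 16 had 35 of 422 (8.29%, adjusted p = 0.104) in the same exact test. Chromosome X had the highest share of the chromosomes in this list, 24 of 261 (9.20%, exact test, adjusted p = 0.0979), and 52 of 693 with DHX9-Rb (odds ratio 0.986 against the rest of that list). Chromosome 13 had 4 wide peaks among 107 with DHX9-Rb and 0 among 25 with DHX9-mAb. Whether a chromosome differed between the antibodies was not tested. The strands were near balance, with the plus strand holding 50.7% of wide and 52.4% of narrow DHX9-Rb peaks and 55.4% of wide and 51.9% of narrow DHX9-mAb peaks (adjusted p = 0.221 in each list, exact test). Peaks that overlapped a peak of the opposite strand in the same list numbered 17 of 1638 wide and 95 of 19926 narrow peaks with DHX9-Rb, and 1 of 392 wide and 12 of 6389 narrow peaks with DHX9-mAb.

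**Figure D4:**
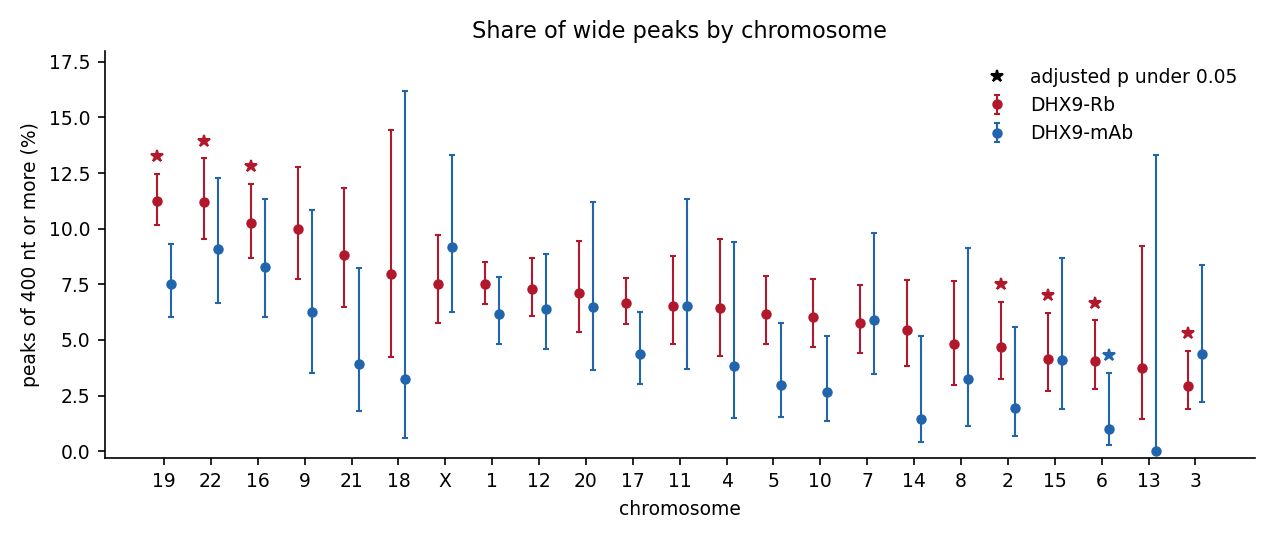
Share of peaks that span 400 nt or more on each chromosome, with 95% Wilson intervals, for DHX9-Rb (red) and DHX9-mAb (blue), in the order of the DHX9-Rb share. Stars mark an adjusted p under 0.05 in Fisher's exact test against the rest of the list, on chromosomes 19, 22, 16, 2, 15, 6 and 3 for DHX9-Rb and on chromosome 6 for DHX9-mAb.

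Regions are named here by position, as no hg19 annotation was used. The widest DHX9-Rb peak lay on the plus strand of chromosome 16 from 28968660 to 28969556. The DHX9-mAb peak over it, from 28968965 to 28969607 (643 nt), was the fourth widest of its list and covered 66.0% of it. On the minus strand of chromosome 22, a DHX9-Rb peak of 808 nt from 32104359 to 32105166 met a DHX9-mAb peak of 325 nt, which covered 40.2% of it. On the plus strand of chromosome 1, one of 805 nt from 35582998 to 35583802 met a DHX9-mAb peak of 504 nt, which covered 60.2%. The fifth, of 792 nt, lay on chromosome 19 from 39444142 to 39444933 and met DHX9-mAb peaks of 443 and 261 nt. Each of the 5 widest DHX9-Rb peaks, 1 of them described below, was met by DHX9-mAb. Among all 101 DHX9-Rb peaks of 600 nt or more, 88.1% overlapped a DHX9-mAb peak.

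An unplaced contig that is known to carry ribosomal RNA genes had 1 peak in each list, wide in both. On this contig, chrUn_gl000220, the DHX9-Rb peak ran from 117579 to 118386 on the plus strand (808 nt) and the DHX9-mAb peak from 117647 to 118417 (771 nt). They shared 91.6% of the DHX9-Rb peak and 96.0% of the DHX9-mAb peak, and the DHX9-mAb peak was the widest of its list. Of the 5 widest DHX9-mAb peaks, 3 lay on chromosome 22. Besides the peak of 667 nt described above, a minus-strand peak from 41996242 to 41996885 (644 nt) was covered by DHX9-Rb peaks of 250 and 555 nt over 96.3%. A plus-strand peak from 50849385 to 50849998 (614 nt) was covered by a DHX9-Rb peak of 396 nt over 63.5%.

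The peaks of both lists together formed 8595 runs, of which 1133 had a wide peak and 81 had 5 or more. These 81 runs held 570 of the 2030 wide peaks (28.1%). In 9 runs there were 10 or more wide peaks, 103 in all, and 8 of these runs are described here. The longest, on the plus strand of chromosome 1 from 151171871 to 151201542, had 12 wide peaks among 67 with DHX9-Rb and 3 among 34 with DHX9-mAb. With DHX9-Rb, 9 of the 12 wide and 19 of the 55 narrow peaks there had a covered midpoint. With DHX9-mAb, all 3 wide and 29 of the 31 narrow peaks had one.

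On chromosome 19, 4 such runs stood apart from each other. On the minus strand from 2000204 to 2014698, 12 of 30 DHX9-Rb and 2 of 19 DHX9-mAb peaks were wide. There the wide DHX9-Rb peaks from 2010268 to 2014349, 4 of the 12, touched 0 DHX9-mAb peaks, and the other 8 touched at least 1. On the minus strand from 39440949 to 39451297, 9 of 15 DHX9-Rb and 5 of 17 DHX9-mAb peaks were wide, and DHX9-Rb covered 64.5% and DHX9-mAb 50.4% of the run. All 5 wide and 8 of 12 narrow DHX9-mAb peaks there had a covered midpoint, and 7 of the 9 wide and 3 of 6 narrow DHX9-Rb peaks. On the plus strand from 34859701 to 34868818, 7 of 17 DHX9-Rb and 3 of 18 DHX9-mAb peaks were wide. Of these, 5 of the 7 and 1 of the 3 had a covered midpoint, against 4 of 10 and 10 of 15 narrow peaks. On the same strand from 45543655 to 45555520, 6 of 23 and 4 of 14 were wide. All 4 wide DHX9-mAb peaks had a covered midpoint there, and so did all 10 narrow ones.

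The remaining runs lay on chromosomes 17, 22 and 9. On chromosome 17, plus strand, from 29106948 to 29122932, 8 of 35 DHX9-Rb and 2 of 19 DHX9-mAb peaks were wide. The midpoint was covered in 3 of the 8 wide and 10 of 27 narrow DHX9-Rb peaks. On chromosome 22, minus strand, from 42957330 to 42966603, 8 of 15 DHX9-Rb and 2 of 16 DHX9-mAb peaks were wide. Covered midpoints were found in 7 of the 8 wide and 4 of 7 narrow DHX9-Rb peaks. On chromosome 9, minus strand, from 131428404 to 131446544, 10 of 31 DHX9-Rb peaks were wide and 0 of 15 DHX9-mAb peaks, the widest of which spanned 348 nt. The midpoints of 3 of the 10 wide and 8 of 21 narrow DHX9-Rb peaks were covered there. Without the 9 runs the midpoint difference was 16.2 points with DHX9-Rb and -1.42 points with DHX9-mAb (adjusted p = 9.74e-43 and 0.504, Fisher's exact test).

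**Figure D5:**
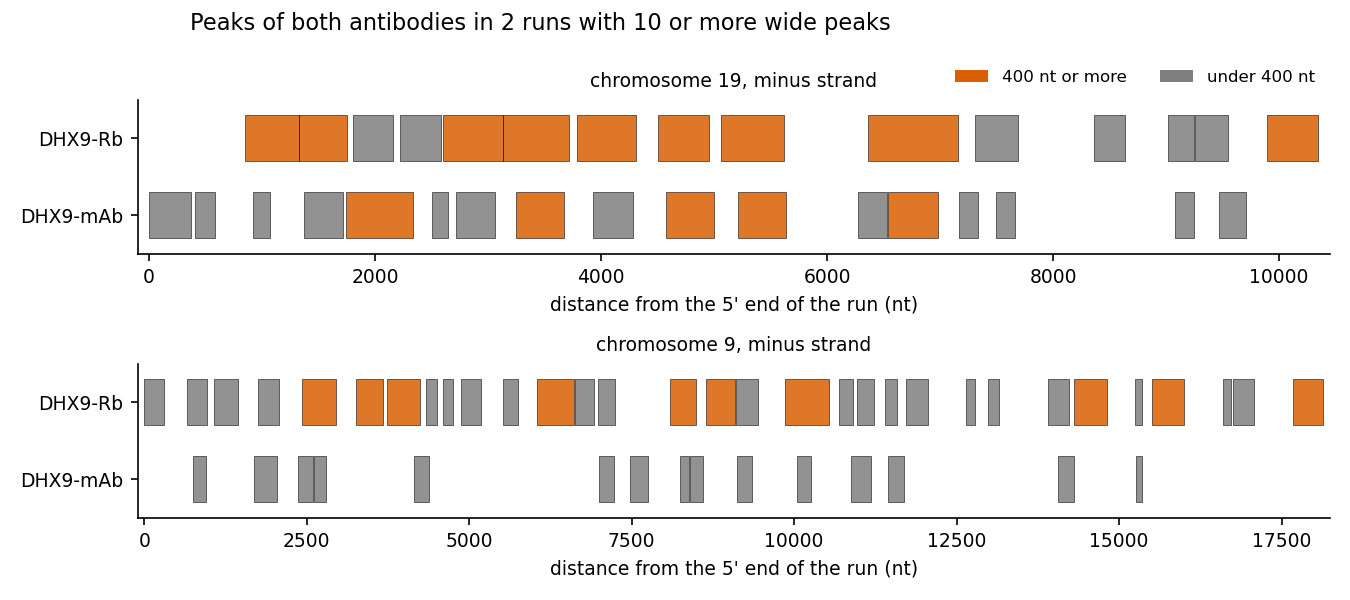
Peaks of DHX9-Rb (upper row) and DHX9-mAb (lower row) along the runs of chromosome 19 from 39440949 and of chromosome 9 from 131428404, drawn to scale by distance from the 5′ end, with peaks of 400 nt or more in orange. The first run has 9 wide DHX9-Rb and 5 wide DHX9-mAb peaks, and the second has 10 and 0. Both were picked for the plot after their values had been seen.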

How the data were processed

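Peak regions of DHX9 FLASH libraries of HEK293 cells were analysed. The deposited values are peak positions (start, end and strand, counted from 1), and the authors' score column is empty. PEAKachu stands as the caller in the files' second column. Bowtie2 2.2.6 and hg19 come from the submitters' processing notes. The version and settings of the caller, its use of IgG-Rb and of the replicates, and the handling of reads from repeats are not stated there. Per the labels, both replicates of an antibody share a list. A list may hold peaks that overlap on a strand.

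The members were chosen with earlier results of these data known, and so were the lists of results. Tests of wide against narrow peaks were Fisher's exact tests (two-sided), adjusted by Benjamini-Hochberg over 8 tests, and odds ratios between lists with Woolf's test over 4. Chromosomes were adjusted over the 24 sequences of a list. Midpoints were rounded down, and where several peaks covered one, the widest was taken. Runs join peaks over gaps under 1 kb. They were built within a list, except the 8595 runs of both lists. Intervals are 95% Wilson intervals and cover counting error only. Regions were named by a rule: the 5 widest peaks of each list, the 3 wide peaks of each list with most midpoints of the other (ties by width), peaks on unplaced contigs, and the 8 runs with most wide peaks. A tie made 9 runs, and 1 of them, on chromosome X, counts in all totals but is not reported here. The midpoint test and the chromosome test were checked on simulated data made from the DHX9-Rb list, with each peak drawn independently. The other tests were not checked in this way. Software was SciPy 1.17.1, pandas 2.3.3 and NumPy 2.4.6 under Python 3.11.15, with matplotlib 3.10.9 for plots.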

Additional observations from a re-analysis of the deposited data

Results flagged for a closer look

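The midpoint result differed between the lists. The odds ratio of a covered midpoint, wide against narrow, was 2.30 in the DHX9-Rb list and 0.954 in the DHX9-mAb list, a ratio of 2.41 (Woolf's test, n = 28345 peaks, adjusted p = 8.99e-10 over 4 tests). The test takes the lists as independent, but overlapping pairs count in both, so its p-value is not exact. Narrow DHX9-mAb peaks were already covered in 79.9% of cases and narrow DHX9-Rb peaks in 21.9%. The lists also differ in size, with 6781 DHX9-mAb and 21564 DHX9-Rb peaks. Whether the ratio reflects the antibodies or the sizes of the lists was not tested.

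Wide peaks were also present on the mitochondrial chromosome, which is outside the comparisons. There 22 of 54 DHX9-Rb peaks (40.7%) and 21 of 50 DHX9-mAb peaks (42.0%) spanned 400 nt or more. No control values were at hand for either.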

How the results depend on the processing

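No paired analysis was possible because both replicates of an antibody are pooled in 1 list. For the same reason no replicate could be left out. The DHX9-Rb differences in covered midpoints and in near neighbours kept their direction and stayed past 0.05 under every alternative tried for them. So did the differences in the width of the covering peak in both lists. The untested split by run size was not among these alternatives. In it, 9.93% of wide and 13.4% of narrow DHX9-Rb peaks that stood alone had a covered midpoint. The shares were 19.5% and 18.9% in runs of 2 to 4 peaks, and 48.9% and 28.1% in runs of 5 or more. In the DHX9-mAb list the midpoint difference of -0.774 points turned to 4.76 points at a threshold of 300 nt, 6.4 points at 500 nt and 7.09 points by any overlap, and with the 5′ end base it was -5.91 points and passed (Fisher's exact test, adjusted p = 0.0312). Its difference in near neighbours turned to -0.847 points within windows. The plus-strand difference of DHX9-Rb, -1.73 points, turned to 0.104 points at 300 nt and passed at -3.46 points without chromosome 19. That of DHX9-mAb, 3.42 points, passed at 5.29 points at 300 nt and turned to -1.37 points at 500 nt. The causes were not tested.

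The share of wide peaks was 19.3% with DHX9-Rb and 15.2% with DHX9-mAb at 300 nt, 1.77% and 0.959% at 500 nt, and 13.8% and 9.46% with peaks within 50 nt merged. With DHX9-Rb 10 chromosomes were called at 300 nt, 4 at 500 nt and 12 after merging, against 7, and with DHX9-mAb 4, 2 and 8, against 1. Of the 7, 6 were among those called at 300 nt, 4 at 500 nt and 7 after merging. The 1 of DHX9-mAb, chromosome 6, was called after merging and not at 300 or 500 nt, while chromosome X was called under all 3. Peaks holding 2 or more midpoints of the other list numbered 60 with DHX9-Rb at 500 nt, and 66 and 12 with DHX9-mAb at 300 and 500 nt. By any overlap they numbered 267 and 146. The alternatives that left out runs with 10 or more wide peaks, or measured between midpoints, were chosen after seeing the data. No depth, height or background per peak was at hand.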
